A study of Mus musculus with 7 samples.

Results

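Genes whose loss or mutation recurs in autism and intellectual disability were followed in newborn mouse brain as a set of 32, each found in the deposited count table by its exact symbol. The set leaves out histone methyltransferases and ion channels by definition, and its 32 members stand among 55536 Ensembl genes of the table. RNA came from brains of C57BL/6 mice at postnatal day 0, untreated, in 2 groups. The Setd2SRI/wt group held 3 brains (1 male, 2 females) heterozygous for a Setd2 allele that carries R2483H in the SRI domain. Their wild-type littermates gave 4 brains (2 males, 2 females). Setd2 encodes the enzyme that trimethylates lysine 36 of histone H3 along transcribed genes, and its SRI domain docks the enzyme on elongating RNA polymerase II. The labels give neither the litter of each animal nor the way the allele was made, so p-values measure the spread between these 7 brains.

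Most genes tied to autism and intellectual disability act at 1 of 2 levels. Some encode proteins of chromatin and transcription that set the programme of neurons while they are born and mature. The others encode proteins of the synapse, such as the SHANK scaffolds under glutamate receptors and the neurexins and neuroligins that bridge the synaptic cleft. Many act in a dose-dependent way, so that losing a single copy is enough to cause disease in people. SETD2 is itself a gene of neurodevelopmental disorders.

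All 32 members are protein-coding genes, all were measured in every library, and all 32 passed the filter on low counts among 17260 tested genes. At a false discovery rate of 5%, 0 of the 32 members were called between genotypes by edgeR, DESeq2 or limma-voom, and 4 had an unadjusted p under 0.05 in edgeR, where edgeR called 0.0174% of all tested genes and 8.95% had such a p. Of the members 15 had a positive and 17 a negative log2 fold change (Setd2SRI/wt over wild type), with a median of -0.01, beside a median of 0.01 over all tested genes, of which 51.4% were positive. For 31 of the 32 members the 95% interval of the fold change stayed inside 1.5-fold in either direction. The member left over, Adnp, had few counts. In the members other than Adnp the fold change ran from a ratio of 0.811 (Zbtb20) to 1.22 (Mef2c).

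Library totals ran from 4192021 to 16064644 counts, and members other than Adnp had between 174 and 8414 counts per library. Together the members took 0.514% to 0.57% of the counts in Setd2SRI/wt libraries and 0.517% to 0.538% in wild-type libraries. Setd2 had 80.0, 95.1 and 116 CPM (a count scaled to the TMM-adjusted library size) in the Setd2SRI/wt male and females 1 and 2, against 98.5 and 97.3 CPM in the wild-type males and 107 and 111 CPM in the wild-type females. Its groups overlapped, and the fitted difference was -0.14 ± 0.11 on the log2 scale (SE, edgeR, adjusted p = 0.798). That difference became -0.05 when the Setd2SRI/wt male was left out, -0.09 when female 1 of that genotype was, and -0.25 when its female 2 was. The mRNA level of a missense allele is no check of the labels. All 8 neuronal markers were present, with a summed level of 6219.75 to 7428 CPM in Setd2SRI/wt and 5899 to 6675 CPM in wild-type libraries. Wild-type female 2 had the highest sums of pituitary markers (17.7 CPM, against 1.83 to 5.06 CPM in the other 6 libraries) and of hypothalamic markers (240.03 CPM, against 19.9 to 59.8 CPM).

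The start regions of the members show how unlike these genes are in sequence. RefSeq tables on GRCm38.p6 gave the 250 bases before 40 start sites of 24 members. The 8 members without an entry were Chd2, Auts2, Wac, Tcf4, Shank1, Shank2, Nlgn3 and Nrxn2. The dinucleotide CG, which reads the same on both strands and is the target of DNA methylation in mammals, was counted in each window. At least 10 of them stood in 24 of the 40 windows (60.0%), against 37.8% of the 32851 windows of all genes, and the counts ran from 0 to 51 per window. Mef2c, Tcf20 and Zbtb20 had no window with 10 or more. The windows of Tcf20 and Zbtb20 lie inside the annotated genes, so the regions before their outermost annotated starts were not examined. The 4 windows printed next differ widely in CG and belong to members described in the results, with Mef2c and Zbtb20 poor in CG, and Shank3 and Ctnnb1, of which Ctnnb1 had the highest level of all members, rich in it. Each is given 5′ to 3′ on the gene's strand, ends at the base before the start site, holds no annotated exon, and has its CG pairs in capitals.
Mef2c: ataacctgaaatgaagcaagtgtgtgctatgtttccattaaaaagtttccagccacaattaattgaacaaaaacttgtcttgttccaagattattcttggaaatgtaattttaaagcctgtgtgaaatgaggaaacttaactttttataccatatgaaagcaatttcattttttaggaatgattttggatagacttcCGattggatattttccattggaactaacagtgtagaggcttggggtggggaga
Zbtb20: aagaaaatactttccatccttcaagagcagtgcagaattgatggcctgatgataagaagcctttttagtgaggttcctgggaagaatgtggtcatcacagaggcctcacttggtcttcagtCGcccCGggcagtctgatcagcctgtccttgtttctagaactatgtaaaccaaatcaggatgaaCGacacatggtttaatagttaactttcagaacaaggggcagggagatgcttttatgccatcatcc
Shank3: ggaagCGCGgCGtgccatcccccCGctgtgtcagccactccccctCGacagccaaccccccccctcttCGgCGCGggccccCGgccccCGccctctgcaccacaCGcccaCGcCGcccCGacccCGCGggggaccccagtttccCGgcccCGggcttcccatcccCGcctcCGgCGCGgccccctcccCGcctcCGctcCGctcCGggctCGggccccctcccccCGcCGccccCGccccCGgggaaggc
Ctnnb1: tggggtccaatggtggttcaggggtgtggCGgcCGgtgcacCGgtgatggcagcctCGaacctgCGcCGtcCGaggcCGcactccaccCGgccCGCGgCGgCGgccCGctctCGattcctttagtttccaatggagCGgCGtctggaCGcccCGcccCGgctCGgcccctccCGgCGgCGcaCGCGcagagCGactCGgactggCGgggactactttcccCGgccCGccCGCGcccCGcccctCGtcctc
These windows held 1 (Mef2c, chr13:83503784-83504033, plus strand), 3 (Zbtb20, chr16:43247034-43247283, plus strand), 31 (Shank3, chr15:89499358-89499607, plus strand) and 35 CG pairs (Ctnnb1, chr9:120933150-120933399, plus strand). Mef2c and Ctnnb1 have further start sites in the tables, and the reads behind a gene's count were not assigned to any of them. The Ctnnb1 window, too, lies inside the annotated gene, which starts at 120929216, so the region before that outermost start was not examined.

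The members are also long genes. Their median span from start to end was 133 kb, against 25.7 kb over 14534 tested protein-coding genes. Altogether 19 of the 32 members exceeded 100 kb, against 15.8% of tested protein-coding genes. Cntnap2 spans 2245 kb, and Nrxn3, Auts2 and Cntn4 also exceed 1000 kb, as do 57 tested protein-coding genes in all. The 19 members over 100 kb had a median log2 fold change of 0.06 and the 13 shorter members one of -0.03. For tested protein-coding genes these medians were -0.05 over 100 kb and 0.01 at or under it. Across the 32 members the Spearman correlation of span and log2 fold change was 0.03, and across tested protein-coding genes it was -0.15. Genes of 1 set of libraries share depth and composition, so these correlations are descriptions.

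Levels were compared between genes after division by exon length (CPM per kb of all annotated exons). This understates genes with many rarely used exons, such as Zbtb20 and Tcf4. The median member had 10.5 CPM per kb, against 4.18 CPM per kb for tested genes, and 30 of the 32 members lay above that median of tested genes. Ctnnb1, the gene of beta-catenin, led with 57.1 ± 7.66 CPM per kb in Setd2SRI/wt brains and 60.1 ± 2.92 CPM per kb in wild-type brains (SD, n = 3 and 4). Shank1 followed with 46.4 ± 4.93 and 39.9 ± 4.38, Nlgn2 with 40.3 ± 2.83 and 41.4 ± 3.60, Cul3 with 39.5 ± 4.12 and 41.1 ± 2.52, and Mef2c with 34.1 ± 7.09 and 27.97 ± 2.73 CPM per kb in Setd2SRI/wt and wild-type brains. These 5 genes lay in the top 10% of tested genes. Ctnnb1 exceeded Shank1 in 6 of 7 libraries, whereas the order of Shank1, Nlgn2 and Cul3 differed between libraries. At the low end stood Zbtb20, Nlgn3, Auts2 and Adnp, with means over the 7 libraries of 4.95, 4.58, 3.57 and 0.492 CPM per kb. Nlgn3 and Adnp share 41.2% and 82.1% of their exon bases with another gene on the same strand, so their places are uncertain. In all, 25 of 31 pairs of neighbours in the ranking changed order in at least 1 library, so the ranking is coarse.

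**Figure D1:**
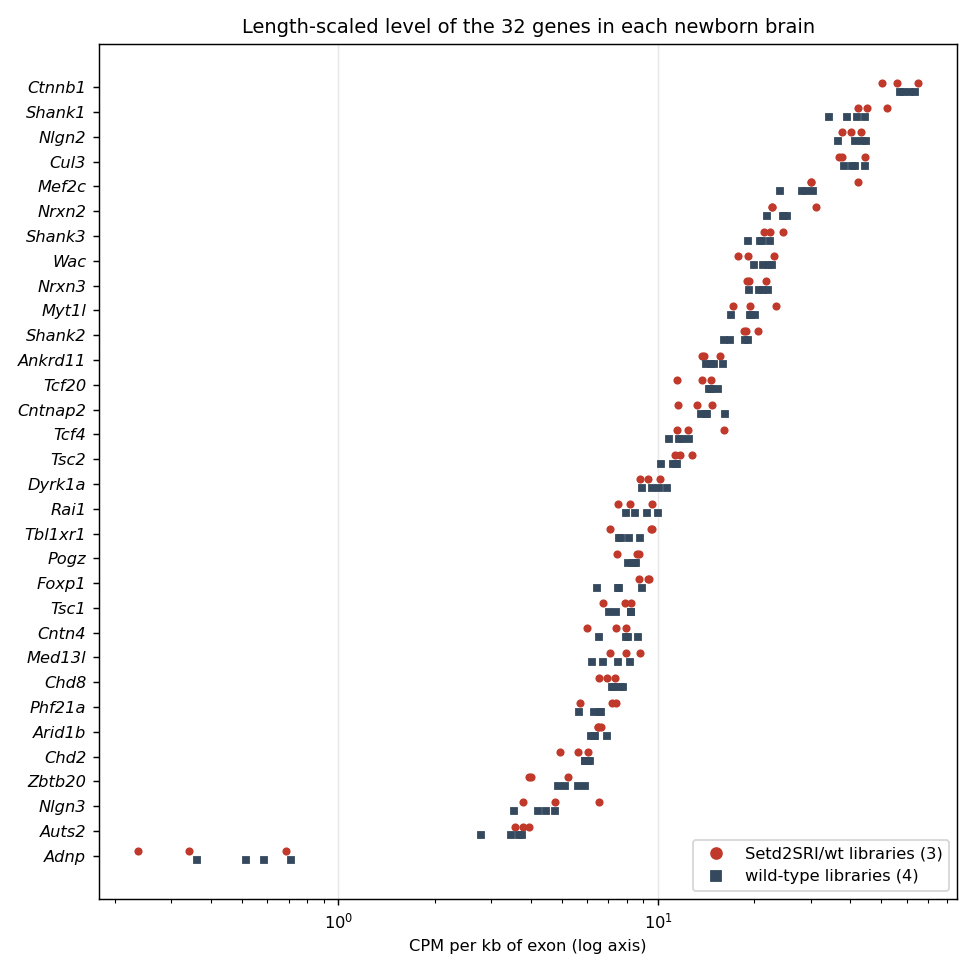
Level of each of the 32 genes in CPM per kb of exon (log axis), with a circle for each of 3 Setd2SRI/wt libraries and a square for each of 4 wild-type libraries. Genes are ordered by their mean over the 7 libraries, from Ctnnb1 at 58.8 to Adnp at 0.492, and circles and squares overlap in every row.

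Related members differed in level. Shank1 exceeded Shank2 by 2.04 to 2.79 times and Shank3 by 1.62 to 2.32 times per kb in the 7 libraries. Nlgn2, the neuroligin of inhibitory synapses, exceeded Nlgn3 by 6.12 to 12.2 times per kb. In the annotation Nlgn3 shares 41.2% of its exon bases with Gm21986 on the same strand. How reads there were counted is not given in the sources used here, so this ratio is uncertain. For Nrxn2 over Nrxn3 the ratio was 0.991 to 1.62, so that their order was not the same in every brain. Tsc2 exceeded Tsc1 by 1.35 to 1.74 times, and Chd8 exceeded Chd2 by 1.18 to 1.32 times, in length-scaled level. Chd2 shares 18.4% of its exon bases with 1810026B05Rik on the same strand, so the ratio of Chd8 to Chd2 is uncertain too.

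Of the 3 chromatin remodelling members 0 were called between genotypes. Chd8, an ATP-dependent remodeller that is among the most often mutated genes in autism, had 115, 108 and 121 CPM in the Setd2SRI/wt male and females 1 and 2, against 120.05 and 126 CPM in the wild-type males and 119 and 128 CPM in the wild-type females. The Setd2SRI/wt male and female 1 lay below every wild-type brain and female 2 lay among them, and the log2 fold change was -0.11 ± 0.10 (SE, adjusted p = 0.849, 95% interval -0.31 to 0.10). Leaving out Setd2SRI/wt female 1 gave -0.06. Its relative Chd2 averaged 79.2 ± 7.80 CPM in Setd2SRI/wt and 85.8 ± 1.58 CPM in wild-type brains (SD, n = 3 and 4). Arid1b, the DNA-binding subunit of the BAF remodelling complex, averaged 82.3 ± 0.916 and 81.2 ± 4.22 CPM in Setd2SRI/wt and wild-type brains, with a log2 fold change of 0.03. Of 20 other CHD and BAF genes 0 were called. In 4 of them all Setd2SRI/wt libraries lay above all wild-type libraries (Actl6b, Dpf1, Smarcb1 and Smarca2), and in 4 they lay below (Chd6, Chd7, Chd9 and Arid2), where 3.83% of all tested genes lay wholly above and 4.08% wholly below. Chd7 is named by the rule of the smallest p in a list, and the other 7 genes were named after their values were seen. Chd7, the gene of CHARGE syndrome, averaged 21.4 ± 0.861 CPM in Setd2SRI/wt and 28.5 ± 2.48 CPM in wild-type brains (log2 fold change -0.39 ± 0.13, SE, adjusted p = 0.314).

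The 10 coregulators and chromatin-bound regulators had log2 fold changes between -0.35 and 0.19, 4 of them positive, with a median of -0.03, and 0 were called. Tcf20, a nuclear coregulator related to Rai1, had the smallest p among them. It had 94.9, 113 and 121 CPM in the Setd2SRI/wt male and females 1 and 2, against 120.4 and 119 CPM in the wild-type males and 121 and 127 CPM in the wild-type females. The Setd2SRI/wt male and female 1 lay below every wild-type brain and female 2 lay within the wild-type range, and the log2 fold change was -0.18 ± 0.10 (SE, adjusted p = 0.668). Leaving out the Setd2SRI/wt male gave -0.08. Rai1, the dosage-sensitive gene of Smith-Magenis syndrome, averaged 80.9 ± 10.1 CPM in Setd2SRI/wt and 85.4 ± 8.55 CPM in wild-type brains. Ankrd11, the gene of KBG syndrome and the most abundant of these 10 in CPM, averaged 239 ± 16.8 CPM in Setd2SRI/wt and 247 ± 12.6 CPM in wild-type brains. Pogz, which binds heterochromatin protein, averaged 76.1 ± 6.59 CPM in Setd2SRI/wt and 76.9 ± 1.87 CPM in wild-type brains.

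Med13l, a subunit that ties the kinase module to Mediator, averaged 122 ± 13.2 CPM in Setd2SRI/wt and 110.4 ± 13.3 CPM in wild-type brains. Auts2, a partner of a noncanonical Polycomb complex in neurons, averaged 86.3 ± 4.17 CPM in Setd2SRI/wt and 78.5 ± 9.91 CPM in wild-type brains. Its lowest value, 64.2 CPM, came from wild-type female 2, and the other 6 brains lay between 79.6 and 90.2 CPM. Wac, an adaptor of histone H2B ubiquitination, averaged 118 ± 15.8 CPM in Setd2SRI/wt and 128 ± 7.07 CPM in wild-type brains. Phf21a, a reader of unmethylated histone H3 in the LSD1 corepressor complex, averaged 57.9 ± 7.93 and 54.0 ± 3.80 CPM, and Tbl1xr1, a subunit of the NCoR corepressor, averaged 77.7 ± 12.5 and 71.4 ± 5.02 CPM in Setd2SRI/wt and wild-type brains. Among 15 partners in the corepressor complexes and the Mediator kinase module 0 were called, and the one with the smallest p, the Mediator kinase gene Cdk19, averaged 114 ± 18.8 CPM in Setd2SRI/wt and 96.9 ± 8.84 CPM in wild-type brains (log2 fold change 0.26 ± 0.12, SE, adjusted p = 0.557). For Cdk19, leaving out Setd2SRI/wt female 2 gave 0.12.

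Adnp, a homeodomain protein that works with CHD4 and heterochromatin protein, was the exception in depth. It had 10 to 48 counts per library, 1.83, 3.68 and 1.26 CPM in the Setd2SRI/wt male and females 1 and 2, against 2.76 and 3.81 CPM in the wild-type males and 1.94 and 3.14 CPM in the wild-type females. Its 95% interval of -1.15 to 0.44 on the log2 scale spans more than that of any other member. In the GENCODE annotation 82.1% of its exon bases lie within exons of Gm20716 on the same strand, and Gm20716 had 0 to 2 counts per library. How reads in exons shared by 2 genes were counted is not given in the sources used here, so the level of Adnp is uncertain. A further 3 members share more than 10% of their exon bases with another gene, namely Nlgn3 with Gm21986 (41.2%, same strand), Chd2 with 1810026B05Rik (18.4%, same strand) and Ctnnb1 with Ulk4 (14.6%, opposite strand).

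The sequence-specific transcription factors held 3 of the 4 members with an unadjusted p under 0.05, and 0 of these 5 factors were called. Foxp1, a forkhead repressor of cortical and striatal neurons, had 129, 120.1 and 128 CPM in the Setd2SRI/wt male and females 1 and 2, against 104 and 103 CPM in the wild-type males and 123 and 88.7 CPM in the wild-type females. The wild-type female 1 lay above Setd2SRI/wt female 1, and the other 3 wild-type brains lay below all Setd2SRI/wt brains. The log2 fold change was 0.27 ± 0.11 (SE, adjusted p = 0.488, edgeR). Without wild-type female 2 it was 0.17 (adjusted p = 0.742), and without wild-type female 1 it was 0.40 (adjusted p = 0.134).

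Mef2c, a MADS-box factor that controls synapse number and is strong in cortical excitatory neurons, had 471, 472 and 665 CPM in the Setd2SRI/wt male and females 1 and 2. It had 443 and 479 CPM in the wild-type males and 457 and 379 CPM in the wild-type females. Setd2SRI/wt female 2 stood far above the other 6 brains, while the remaining Setd2SRI/wt brains lay inside the wild-type range. The log2 fold change was 0.28 ± 0.13 (SE, adjusted p = 0.557). Without Setd2SRI/wt female 2 it was 0.10 (adjusted p = 0.775), and without the Setd2SRI/wt male it was 0.44 (adjusted p = 0.772). Without wild-type female 2 it was 0.18 (adjusted p = 0.802).

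Zbtb20, a zinc finger repressor with roles in hippocampal identity and astrocyte formation, leaned the other way. It had 123, 121 and 161 CPM in the Setd2SRI/wt male and females 1 and 2, against 173 and 157 CPM in the wild-type males and 149 and 181 CPM in the wild-type females. Here too Setd2SRI/wt female 2 stood above the other brains of its genotype and inside the wild-type range, and the remaining Setd2SRI/wt brains lay below every wild-type brain. The log2 fold change was -0.30 ± 0.12 (SE, adjusted p = 0.443). It was -0.45 without Setd2SRI/wt female 2 (adjusted p = 0.14). With the pair of highest pituitary marker sums left out (Setd2SRI/wt female 1 and wild-type female 2) it was -0.18 (adjusted p = 0.611).

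Tcf4, the E-protein of Pitt-Hopkins syndrome, averaged 365 ± 66.5 CPM in Setd2SRI/wt and 320.4 ± 19.2 CPM in wild-type brains, and its highest value was again that of Setd2SRI/wt female 2, at 440.3 CPM. Myt1l, a zinc finger factor that keeps non-neuronal genes silent in neurons, averaged 280.2 ± 43.9 and 267 ± 19.9 CPM in Setd2SRI/wt and wild-type brains. In a list of 14 related neuronal factors 0 were called and 9 had positive log2 fold changes, with a median of 0.06. Tbr1, a factor of deep cortical layers, had the smallest p of that list, with 120 ± 9.58 CPM in Setd2SRI/wt and 95.3 ± 12.1 CPM in wild-type brains (log2 fold change 0.36 ± 0.11, SE, adjusted p = 0.289).

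**Figure D2:**
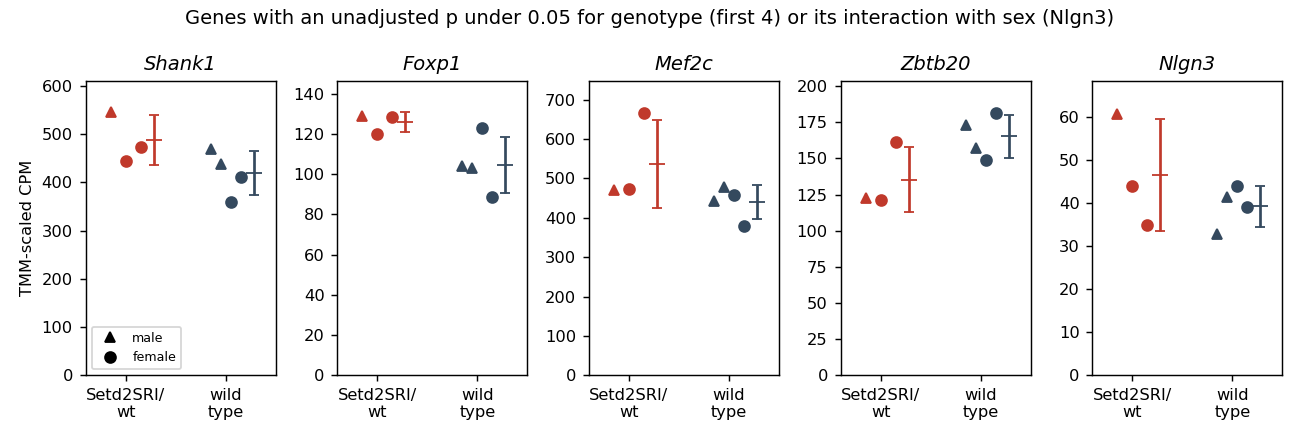
TMM-scaled CPM of Shank1, Foxp1, Mef2c, Zbtb20 and Nlgn3 in each brain, Setd2SRI/wt in red left of wild type in dark blue, with triangles for males, circles for females, and mean ± SD beside the points. Groups overlap in every panel, and 665 CPM of Mef2c in Setd2SRI/wt female 2 and 60.8 CPM of Nlgn3 in the Setd2SRI/wt male stand apart.

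All 3 Shank genes had positive log2 fold changes between 0.14 and 0.26, and 0 were called. SHANK proteins are the master scaffolds of the excitatory postsynaptic density. Shank1 had the smallest p of all members. It had 546, 445 and 474 CPM in the Setd2SRI/wt male and females 1 and 2, against 468 and 439 CPM in the wild-type males and 360.2 and 412 CPM in the wild-type females. Within the males and within the females each Setd2SRI/wt brain lay above each wild-type brain, but the wild-type male 1 lay above Setd2SRI/wt female 1. The log2 fold change was 0.26 ± 0.10 (SE, adjusted p = 0.421), and 0.22 with no sex term (adjusted p = 0.652). Shank2 averaged 209 ± 11.3 CPM in Setd2SRI/wt and 190.2 ± 15.7 CPM in wild-type brains, and Shank3, the gene of Phelan-McDermid syndrome, averaged 209.9 ± 14.8 CPM in Setd2SRI/wt and 192 ± 12.3 CPM in wild-type brains. Among 15 other genes of the postsynaptic scaffold 14 had positive log2 fold changes, beside 51.4% of tested genes, with a median of 0.17, and 0 were called. In 3 of these 15 all Setd2SRI/wt libraries lay above all wild-type libraries and in 0 below, beside 3.83% and 4.08% of tested genes.

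The 6 neuronal adhesion molecules showed no common direction, with 2 positive and 4 negative log2 fold changes, a median of -0.06, and 0 called. Cntnap2, a neurexin-like protein that clusters potassium channels along axons, had the smallest p. It had 118, 136 and 151 CPM in the Setd2SRI/wt male and females 1 and 2, against 139 and 146 CPM in the wild-type males and 145 and 166 CPM in the wild-type females. The Setd2SRI/wt male and female 1 lay below the wild-type range and female 2 within it, and the log2 fold change was -0.17 ± 0.10 (SE, adjusted p = 0.690). Cntn4, a contactin of axon guidance, averaged 60.2 ± 8.498 CPM in Setd2SRI/wt and 66.2 ± 7.63 CPM in wild-type brains. The presynaptic neurexin genes Nrxn2 and Nrxn3 averaged 353 ± 66.9 and 252 ± 19.9 CPM in Setd2SRI/wt brains, and 333 ± 21.02 and 263 ± 15.5 CPM in wild-type brains. For Nrxn2 the value of Setd2SRI/wt female 1, 429.98 CPM, stood above the other 6 brains, which lay between 303 and 349.98 CPM. Nlgn2 averaged 233 ± 16.3 CPM in Setd2SRI/wt and 239.6 ± 20.9 CPM in wild-type brains. Among 20 further adhesion genes 0 were called, 14 had negative values and 6 positive ones (beside 51.4% positive over tested genes), with a median of -0.06. In 2 of these 20 all Setd2SRI/wt libraries lay below all wild-type libraries and in 0 above, beside 4.08% and 3.83% of tested genes. The smallest p there belonged to Cbln1, the cerebellar synapse organiser that links neurexins to delta glutamate receptors, with 18.0 ± 6.35 CPM in Setd2SRI/wt and 28.2 ± 7.38 CPM in wild-type brains (log2 fold change -0.74 ± 0.20, SE, adjusted p = 0.207).

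Genes of signalling, growth control and protein turnover had log2 fold changes from -0.10 to 0.13, and 0 of 5 were called. Tsc2, the GTPase-activating member of the tuberous sclerosis complex that restrains mTOR, had the smallest p. It had 123, 113 and 109 CPM in the Setd2SRI/wt male and females 1 and 2, against 111 and 109 CPM in the wild-type males and 98.1 and 107 CPM in the wild-type females. The log2 fold change was 0.13 ± 0.10 (SE, adjusted p = 0.784). Its partner Tsc1 averaged 90.2 ± 9.34 CPM in Setd2SRI/wt and 91.5 ± 7.09 CPM in wild-type brains. Ctnnb1 averaged 296 ± 39.8 and 312 ± 15.1 CPM, and Cul3, the scaffold of a family of ubiquitin ligases, averaged 193 ± 20.1 and 200.4 ± 12.3 CPM in Setd2SRI/wt and wild-type brains. Dyrk1a, a dosage-sensitive kinase gene of the Down syndrome region, averaged 77.7 ± 5.81 CPM in Setd2SRI/wt and 80.8 ± 6.12 CPM in wild-type brains. Of 16 other genes of the TSC and mTOR pathway 0 were called, and Akt2 had the smallest p (log2 fold change 0.23 ± 0.14, SE, adjusted p = 0.699). For Akt2, leaving out Setd2SRI/wt female 1 gave 0.06, leaving out wild-type female 2 gave 0.13, and leaving out Setd2SRI/wt female 2 gave 0.35. Of 18 genes around beta-catenin and cullin 3, 0 were called, and the smallest p was that of the thalamic factor Tcf7l2 (log2 fold change -0.58 ± 0.17, SE, adjusted p = 0.229). For Tcf7l2, leaving out wild-type female 1 gave -0.36.

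**Figure D3:**
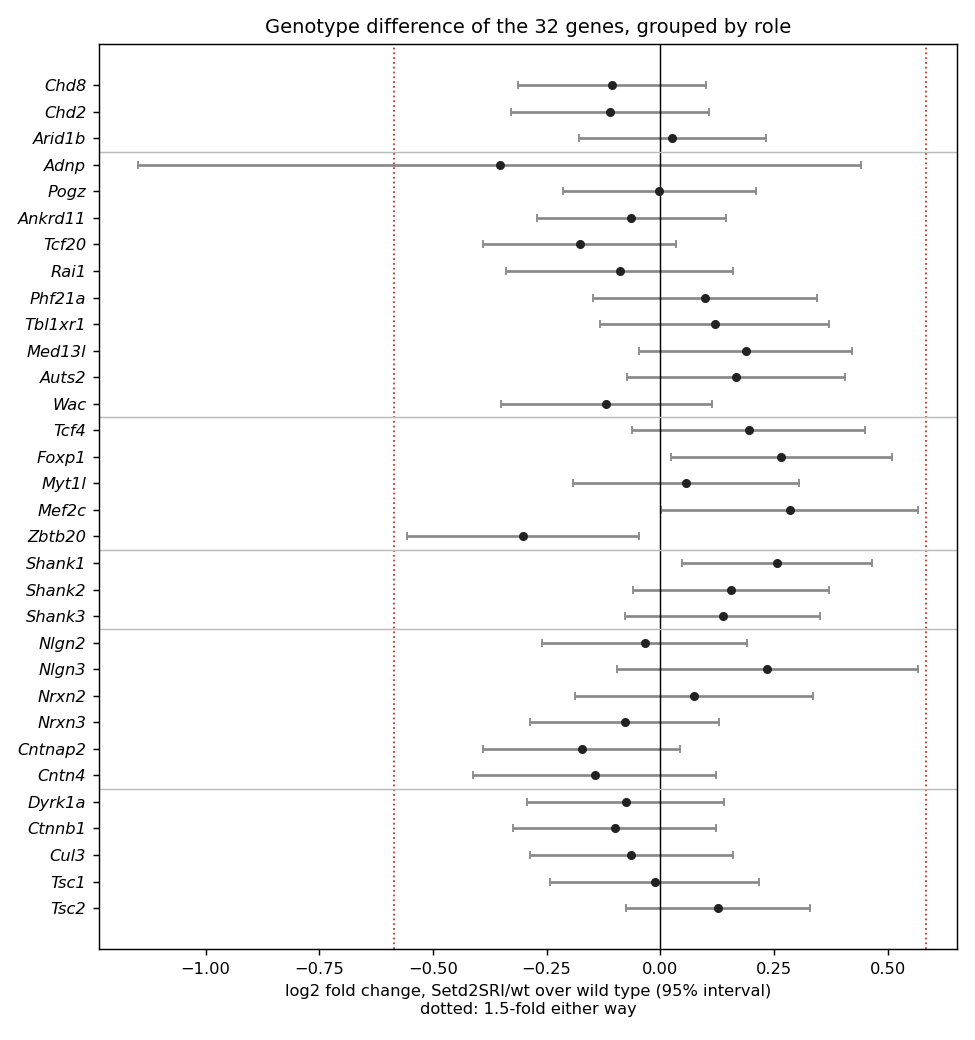
Log2 fold change of each of the 32 genes, Setd2SRI/wt over wild type, with its 95% interval, grouped by role from chromatin remodellers at the top to signalling genes at the bottom. Dotted lines mark 1.5-fold, which the interval of Adnp alone crosses, and the intervals of Foxp1, Mef2c, Zbtb20 and Shank1 leave out 0.

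Across the whole set 0 of 32 members had all Setd2SRI/wt libraries on 1 side of all wild-type libraries, where this held for 7.91% of tested genes. Of the members 4 had an unadjusted p under 0.05, 3 with a positive value (Shank1, Foxp1 and Mef2c, beside 3.84% of tested genes) and 1 with a negative value (Zbtb20, beside 5.11%). A further list of 45 genes of neurodevelopmental disorders, some of them also in the partner lists, gave the same count of 0 called, with 20 positive values and a median of -0.01. Of these 45 genes 7 had an unadjusted p under 0.05 in edgeR (4 positive, 3 negative), beside 8.95% of tested genes. In 4 all Setd2SRI/wt libraries lay above all wild-type libraries and in 1 below, beside 3.83% and 4.08% of tested genes. The standard error of a member's log2 fold change was 0.11 at the median, and 0.38 for Adnp. The members' coefficient of variation was 10.7% in Setd2SRI/wt and 7.26% in wild-type brains at the median, against 14.6% and 11.9% for all tested genes. That comparison was not matched for level. The 10395 tested genes with a mean CPM of at least 10 had a median standard error of 0.12, near the members' 0.11.

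The brains of a genotype did not vary alike. Setd2SRI/wt female 2 held the highest value for 10 of the 32 members and the lowest for 2, and its members lay at a median of 0.09 above their mean on the log2 scale. The Setd2SRI/wt male held the highest value for 5 members and the lowest for 8, and wild-type female 2 the highest for 7 and the lowest for 9. Setd2SRI/wt female 2 also had the highest summed neuronal markers, 7428 CPM. For all tested genes the median deviation was 0.00 to 0.01 in every library.

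**Figure D4:**
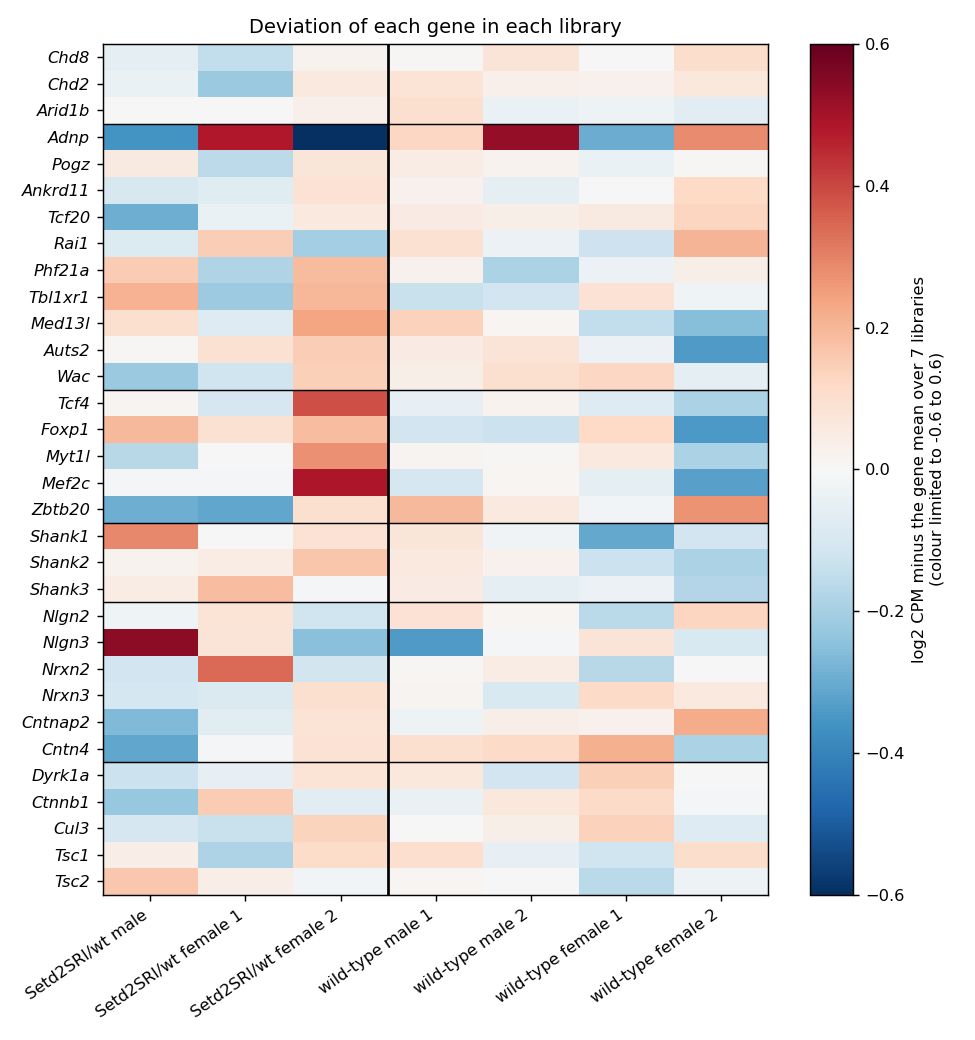
Log2 CPM of each gene in each library minus the mean of that gene over the 7 libraries, in red for higher and blue for lower, with Setd2SRI/wt libraries left of the black line and wild-type libraries right of it. Colours stop at -0.6 and 0.6, and Adnp passes the lower limit in Setd2SRI/wt female 2, at -0.76. Mef2c and Tcf4 in Setd2SRI/wt female 2 and Nlgn3 in the Setd2SRI/wt male are among the reddest cells.

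Summed markers of several brain regions differed between the libraries of the 2 genotypes, with few calls of single markers. The 8 cortical excitatory markers summed to 1138 to 1178 CPM in Setd2SRI/wt libraries and 774 to 1045 CPM in wild-type libraries, and 8 of 8 had positive log2 fold changes with 0 called. The 8 subcortical excitatory markers summed to 107 to 141 CPM in Setd2SRI/wt and 166 to 223 CPM in wild-type libraries, with 8 of 8 negative and 1, Slc17a6, called lower. Over all 17260 tested genes 3 were called (0.0174%). The striatal sums overlapped, with 749 to 1186 CPM in Setd2SRI/wt and 539 to 1043 CPM in wild-type libraries. Of the striatal markers 8 of 8 had positive log2 fold changes, with a median of 0.37 and 0 called. Cerebellar markers summed to 59.7 to 107 CPM in Setd2SRI/wt and 108 to 151 CPM in wild-type libraries, and monoamine neuron markers to 27.0 to 46.8 CPM in Setd2SRI/wt and 57.0 to 158 CPM in wild-type libraries. All 7 tested cerebellar markers (median -0.74) and 8 of 8 monoamine markers (median -1.75) had negative log2 fold changes, with 0 called in either list. The hypothalamic sums overlapped, with 19.9 to 54.6 CPM in Setd2SRI/wt and 38.3 to 240.03 CPM in wild-type libraries, and 8 of 8 markers had negative log2 fold changes with a median of -1.53 and 0 called. No marker of these lists was at 0 in all libraries. Tbr1 is itself in the cortical list, Tcf7l2 in the subcortical list and Cbln1 in the cerebellar list. The part of these sums in the values of the members was not tested, and in brain tissue fewer cells of a type and less RNA per cell cannot be told apart.

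**Figure D5:**
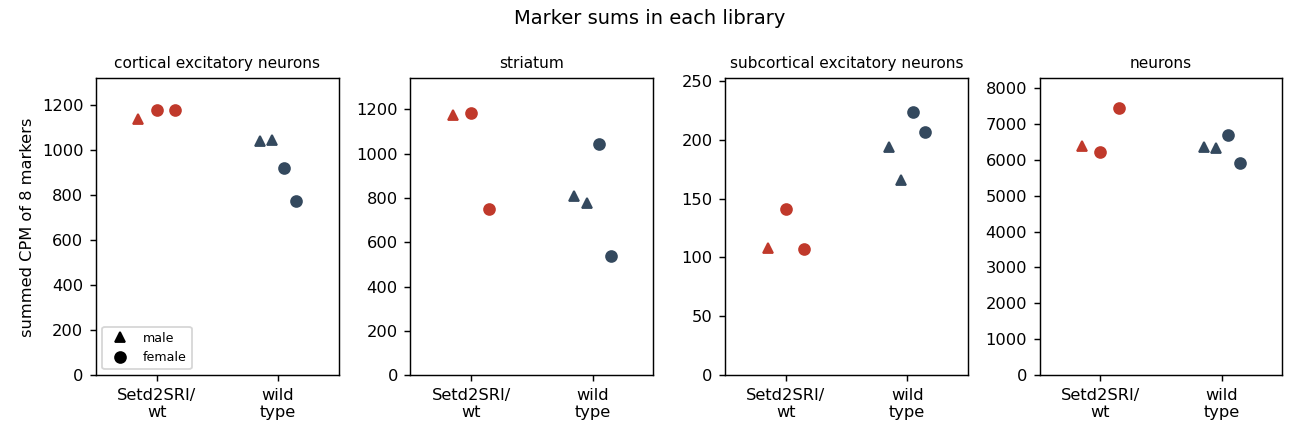
Summed CPM of 8 markers each of cortical excitatory neurons, striatum, subcortical excitatory neurons and neurons in general, per brain, with Setd2SRI/wt in red left of wild type in dark blue, triangles for males and circles for females. The cortical sums of Setd2SRI/wt lie above all wild-type sums (1138 to 1178 against 774 to 1045) and the subcortical sums lie below them (107 to 141 against 166 to 223).

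Sex, the other labelled factor, gave 0 of 32 members called between males and females, where 0.0463% of tested genes were called. The members' log2 differences (male minus female) ran from -0.19 to 0.24, with 16 positive, beside 49.2% of tested genes. Shank1 alone among them had an unadjusted p under 0.05, as did 4.72% of tested genes, 2.22% with a positive and 2.49% with a negative difference. It had 546 CPM in the Setd2SRI/wt male and 468 and 439 CPM in the wild-type males, against 445 and 474 CPM in the Setd2SRI/wt females and 360.2 and 412 CPM in the wild-type females (log2 difference 0.24 ± 0.10, SE, adjusted p = 0.999). In the list of other disorder genes 1, Ddx3x, an X-linked RNA helicase gene named after its value was seen, was lower in males. It had 265 CPM in the Setd2SRI/wt male and 296 and 289 CPM in the wild-type males, against 432 and 435 CPM in the Setd2SRI/wt females and 438 and 452 CPM in the wild-type females (log2 difference -0.65 ± 0.10, SE, adjusted p = 0.0112). Nlgn3, the X-linked member of the set, had a log2 difference of 0.14 ± 0.16 (SE, adjusted p = 0.999).

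The interaction of genotype and sex rests on the 1 Setd2SRI/wt male, and 0 of 32 members were called for it, with 0 called by edgeR among all 17260 genes, where 575 had an unadjusted p under 0.05, and DESeq2 called 2. Nlgn3 alone among the members had an unadjusted p under 0.05, where 3.33% of tested genes did, 1.56% with a positive and 1.77% with a negative value, and 49.8% of tested genes were positive. Nlgn3, a postsynaptic neuroligin of excitatory and inhibitory synapses, had 60.8 CPM in the Setd2SRI/wt male and 32.9 and 41.4 CPM in the wild-type males, against 44.0 and 35.01 CPM in the Setd2SRI/wt females and 44.1 and 39.2 CPM in the wild-type females. The Setd2SRI/wt male was the highest of all brains and the females of both genotypes overlapped. The interaction was 0.82 ± 0.26 on the log2 scale (SE, adjusted p = 0.999, edgeR), and exons shared with Gm21986 make this count uncertain. In the annotation, chromosome X from 101299168 to 101325963 (mm10) holds the gene. DESeq2 called 0 members for genotype, sex or interaction as well.

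In mm10 the members that the results turn on lie on chromosome 7 from 44310253 to 44360572 (Shank1, ENSMUSG00000038738), on chromosome 6 from 98925338 to 99522721 (Foxp1, ENSMUSG00000030067), on chromosome 13 from 83504034 to 83667080 (Mef2c, ENSMUSG00000005583) and on chromosome 16 from 42875881 to 43642602 (Zbtb20, ENSMUSG00000022708). Shank1, Foxp1 and Zbtb20 share at most 3.22% of their exon bases with any single other gene, and Mef2c shares none.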

How the data were processed

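RNA of 7 brains was sequenced after removal of ribosomal RNA, with a stranded total RNA kit, 100 ng of input and paired reads of 76 bp, per the labels' protocols. The authors deposited raw gene counts, analysed as deposited. The submitters' processing notes name mm10, HISAT2 and featureCounts (with FastQC, Trim Galore and edgeR). Versions, the strand setting and the treatment of reads in shared exons are not given in the sources used here, which bears on members that overlap other genes. All 55536 identifiers matched GENCODE mouse release M21, the source of positions and exon lengths. The column of the mutant male was matched as the only mutant male, since its name differed slightly from the description.

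After filterByExpr, 17260 genes remained. They were tested by edgeR 4.0.16 in R 4.3.3 (TMM, two-sided quasi-likelihood F-test), on a model of genotype plus sex, and a Benjamini-Hochberg adjusted p under 0.05 over all of them was a call. The SE is the absolute log2 fold change over the square root of F. A product term gave the interaction. The scripts were tested on simulated data. Full statistics are given for Setd2, members with an unadjusted p under 0.05, and the smallest p in each role group and partner list, except for some values that are not reported here. The members and lists were chosen with earlier results of these data known. Alternatives were other scaling (DESeq2 size factors, total counts), other filters (none, or mean CPM from 1 up), DESeq2 1.42.0, limma-voom (limma 3.58.1), leaving out each library, no sex term, and females alone with and without a replicate block. Leaving out both libraries with the highest pituitary marker sums was chosen after seeing the data. Figures used matplotlib 3.10.9.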

Additional observations from a re-analysis of the deposited data

How the results depend on the processing

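No member was called for genotype or sex under any alternative run, and the count of members with a positive log2 fold change stayed within 1.5 times 15. For the interaction, members were called only without both libraries with the highest pituitary marker sums, and many other genes were called there too. That fit of 5 libraries had 1 residual degree of freedom, so its calls and p-values are not given. There Nlgn3 had an interaction of 1.098. Over all named genes and alternatives, 293 of 299 values kept direction and call. The exceptions were Akt2, at -0.0085 without both pituitary-marker libraries, Cbln1, Tcf7l2 and the Nlgn3 interaction. Cbln1 was called with no filter and without wild-type female 1, and Tcf7l2 with no filter and with the replicate block. The number of all genes called for genotype, 3, was 1 with total counts, a mean CPM of at least 1, limma-voom or females only without the block, 331 with no filter, 65 with DESeq2, 0 with no sex term and 57 without both pituitary-marker libraries. It ran from 0 to 110 when each library was left out in turn. The causes were not tested. With females only and the replicate number as a block it was 80; the labels do not say that a number pairs animals, and deviations of same-numbered females had a correlation of -0.0676. Counting error and the spread between animals were not separated, and the few counts of Adnp limit it most.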
